A study of Mus musculus with 4 samples.

Results

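The labelled cells were those in which the tdTomato lineage reporter was counted at the mid-streak to late-streak (MS-LS) and no-bud to early-bud (OB-EB) stages of mouse gastrulation. They were chosen by the reporter itself: a cell was labelled if it held at least 2000 UMIs (unique molecular identifiers, each standing for 1 captured transcript) and at least 1 UMI of the row named WPRE-tdTomato. This rule gave 75 labelled cells of 3404 in the MS-LS library (2.20%, exact binomial 95% interval 1.74 to 2.75) and 101 of 2939 in the OB-EB library (3.44%, 2.81 to 4.16). The 176 labelled cells were set against the 6167 unlabelled cells of their own library, among 9528 cells of that depth in the whole series. All intervals cover counting error only.

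Embryos of every library were *T* nEGP-CreERT2/+; *R26R* tdTomato/tdTomato and came from animals given tamoxifen by oral gavage (0.08 mg/bw), so no library lacked the reporter, the Cre or the drug. For the MS-LS library, tamoxifen was given at E6+5h and embryos were collected 16 h later, at E6+21h. For the OB-EB library it was given at E6+21h and embryos were collected 6 h later, at E7+3h. There was 1 library per stage, made by droplet 3′ sequencing of dissociated embryos, and the tables do not say from which embryo a cell came. Cells of 1 library are not replicates, so levels are compared with counting intervals and without a test, and stage, labelling interval and library cannot be told apart.

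*T* (Brachyury) is a T-box transcription factor of the primitive streak, the region through which epiblast cells pass to become mesoderm and endoderm, and its expression declines in most mesoderm soon after cells leave the streak. The Cre-ERT2 fusion is made from the *T* locus (chromosome 17, positions 8434423 to 8442496, plus strand, GRCm38) and enters the nucleus when tamoxifen binds it. Recombination at *Gt(ROSA)26Sor* (chromosome 6, positions 113067428 to 113077333, minus strand) then removes a stop sequence built from SV40 poly(A) signals, and tdTomato, followed by the WPRE element and the bGH poly(A) signal, is transcribed in the cell and in its descendants. By this design a reporter transcript stands for past Cre activity rather than for present *T* expression. Whether each counted UMI came from the cell it was assigned to was not tested. The trophoblast and the visceral endoderm are set aside before gastrulation and do not arise from the streak, which makes them the classes expected to carry the least label.

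The label rested on very few transcripts. In the MS-LS library 3329 cells had 0 reporter UMIs, 69 had 1 and 6 had 2, and in the OB-EB library 2838 had 0, 97 had 1 and 4 had 2. No cell of either library had more than 2. A cell with 1 UMI held a median of 1.77 reporter UMIs per 10000 in the MS-LS library (range 0.637 to 4.47) and 3.03 in the OB-EB library (0.923 to 4.93), so that this value mostly restates the depth of the cell. At this depth a cell without a reporter UMI cannot be told apart from one whose reporter transcripts were not captured.

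The labelled cells were somewhat deeper than the others. Their median was 5639 UMIs (2238 to 15688) against 4414 in unlabelled MS-LS cells, and 3321 (2027 to 10840) against 3035 in unlabelled OB-EB cells. Median genes per cell were 1922 against 1642 and 1364 against 1267.5. The mitochondrial share of UMIs was alike, at 1.70% in both groups of the MS-LS library and 1.66% against 1.86% in the OB-EB library. The minimum of 2000 UMIs left out no MS-LS cell with a reporter UMI and 31 OB-EB cells, the deepest of which had 1981 UMIs. The MS-LS and OB-EB libraries shared 18 cell barcodes, none of them between labelled cells. A doublet caller marked 6 MS-LS cells (0.176%) and 1 OB-EB cell (0.0340%), too few to rely on, and the results without the highest doublet scores are given with the other alternatives.

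A second row of the vector moved with the label. The bGH poly(A) row, which lies just after WPRE in the reporter and was not used to choose the cells, had a UMI in 27 of the 75 labelled MS-LS cells (36.0%) and in 82 unlabelled cells (2.46%). Its level was 65.6 UMIs per 1000000 UMIs (CPM) in labelled and 5.02 in unlabelled cells, a log2 ratio of 3.71 (exact 95% interval 3.07 to 4.32). In the OB-EB library it was found in 45 of 101 labelled cells (44.6%) and 157 unlabelled cells (5.53%), at 135 and 17.7 CPM, a log2 ratio of 2.94 (2.47 to 3.38). It stood lower in the extra-embryonic ectoderm-like and visceral endoderm-like cells described below than in epiblast-like cells, at 1.99 against 9.34 CPM at MS-LS and 4.16 against 22.3 CPM at OB-EB. Counting cells with a bGH row UMI as labelled as well raised the shares to 4.61% and 8.78%.

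The cells were next sorted into classes, each cluster being called by a cell type name with the ending "-like" where markers of that type led it. In the MS-LS library the label stood higher in the streak-like and mesoderm-like classes together than in the extra-embryonic ectoderm-like and visceral endoderm-like ones. The extra-embryonic mesoderm-like class, led by *Foxf1*, *Pmp22* and *Hand1*, had 15 labelled cells of 218 (6.88%, 3.90 to 11.1). The primitive streak-like class, led by *Fst*, *Gas1* and *T*, had 7 of 119 (5.88%, 2.40 to 11.7; 9 of 488, 1.84%, at a coarser clustering), and the nascent mesoderm-like class had 13 of 355 (3.66%, 1.96 to 6.18). The haemato-endothelial-like class, led by *Lmo2* and *Fli1*, which encode regulators of blood and vessel formation, had 3 of 74 (4.05%, 0.844 to 11.4). Epiblast-like cells were labelled at 3.18% (27 of 849, 2.11 to 4.59), a share whose interval overlaps that of each of these classes.

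The extra-embryonic ectoderm-like and visceral endoderm-like classes were taken as the level to read the others against. The Cre driver *T* was nonetheless read in them, at 20.3 and 4.16 CPM at MS-LS and 32.5 and 12.6 CPM at OB-EB, and the source of their reporter UMIs was not tested. In the MS-LS library 3 of 529 extra-embryonic ectoderm-like cells (0.567%, 0.117 to 1.65) and 2 of 649 visceral endoderm-like cells (0.308%, 0.0373 to 1.11) held a reporter UMI. Counted together they gave 0.424% (5 of 1178, 0.138 to 0.988) at a median depth of 4677.5 UMIs, against 4.96% (38 of 766, 3.53 to 6.75) at 4724.5 UMIs for the streak-like and mesoderm-like classes, and the intervals do not overlap at this depth. These 4 streak-like and mesoderm-like classes held 50.7% of the labelled cells and 22.5% of all cells, and the extra-embryonic ectoderm-like and visceral endoderm-like classes held 6.67% of the labelled cells and 34.6% of all cells. Definitive endoderm-like cells, led by *Cer1* and *Lefty1*, had 2 labelled of 161 (1.24%, 0.151 to 4.42), an interval that overlaps that level.

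In the OB-EB library the named embryonic classes with labelled cells had shares of 1.43% to 6.14%, against 1.24% to 6.88% at MS-LS. The intervals of these classes overlapped in each library. Epiblast-like cells had 33 labelled of 841 (3.92%, 2.72 to 5.47), primitive streak-like cells 11 of 219 (5.02%, 2.53 to 8.81) and haemato-endothelial-like cells 7 of 114 (6.14%, 2.50 to 12.2). Definitive endoderm-like cells had 9 of 198 (4.55%, 2.10 to 8.45) and extra-embryonic mesoderm-like cells 9 of 271 (3.32%, 1.53 to 6.21). Nascent mesoderm-like cells had 4 of 279 (1.43%, 0.392 to 3.63), a share that was 4.15% at a finer clustering. The extra-embryonic ectoderm-like and visceral endoderm-like classes together had 3 of 465 (0.645%, 0.133 to 1.87) at a median of 3520 UMIs, below the 3.51% (31 of 883, 2.40 to 4.95) of the streak-like and mesoderm-like classes at 3085 UMIs, so the shallower cells carried the larger share. A cluster left unnamed, led by *Ifitm3*, *Hotairm1* and *Hoxb3os* and with *T* at 306 CPM, had the highest share of all OB-EB clusters, 6 of 48 cells (12.5%, 4.73 to 25.2), and was picked out after its value was seen.

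The level of *T* and the share labelled were not in the same order across classes. Axial mesendoderm-like cells, the class of the notochord and its precursors, had *T* at 142 CPM in the MS-LS library and 317 CPM in the OB-EB library, yet 0 of 67 and 0 of 48 held a reporter UMI, which allows shares of up to 4.48% and 6.25%. Epiblast-like cells had *T* at 6.14 and 18.5 CPM and supplied 27 and 33 labelled cells. In the cells as deposited, 3.51% (16 of 456, 2.02 to 5.64) of the MS-LS cells with a *T* UMI were labelled against 2.0% (59 of 2948, 1.53 to 2.57) of those without. When every cell was thinned to 2000 UMIs these shares became 0.922% (2 of 217) and 0.879% (28 of 3187). The OB-EB shares were 3.95% (22 of 557) and 3.32% (79 of 2382) as deposited and 1.32% (5 of 379, 0.430 to 3.05) and 2.19% (56 of 2560, 1.66 to 2.83) after thinning. The intervals overlapped in each of these 4 pairs.

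After thinning, little of the order among the embryonic classes of the MS-LS library was left, and the extra-embryonic pair stayed below the epiblast-like class. Thinning was a single random draw that left few labelled cells per class, and whether depth gave the order was not tested. After thinning to 2000 UMIs, 30 MS-LS cells kept a reporter UMI (0.881%), with 13 among epiblast-like cells (1.53%, 0.818 to 2.60), 10 among the streak-like and mesoderm-like cells together (1.31%, 0.628 to 2.39) and 3 among the extra-embryonic ectoderm-like and visceral endoderm-like cells together (0.255%, 0.0525 to 0.742). The interval of the last then overlapped that of the streak-like and mesoderm-like cells. The primitive streak-like class, the deepest at a median of 8036 UMIs, kept 0 of its 7 labelled cells. In the OB-EB library 61 cells kept a reporter UMI (2.08%), at 3.21% of epiblast-like, 1.93% of streak-like and mesoderm-like and 0.430% of extra-embryonic ectoderm-like and visceral endoderm-like cells. In the OB-EB library the interval of the last, 0.0521 to 1.54, lay below that of epiblast-like cells, 2.13 to 4.64, and overlapped that of the streak-like and mesoderm-like cells, 1.13 to 3.06.

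**Figure D1:**
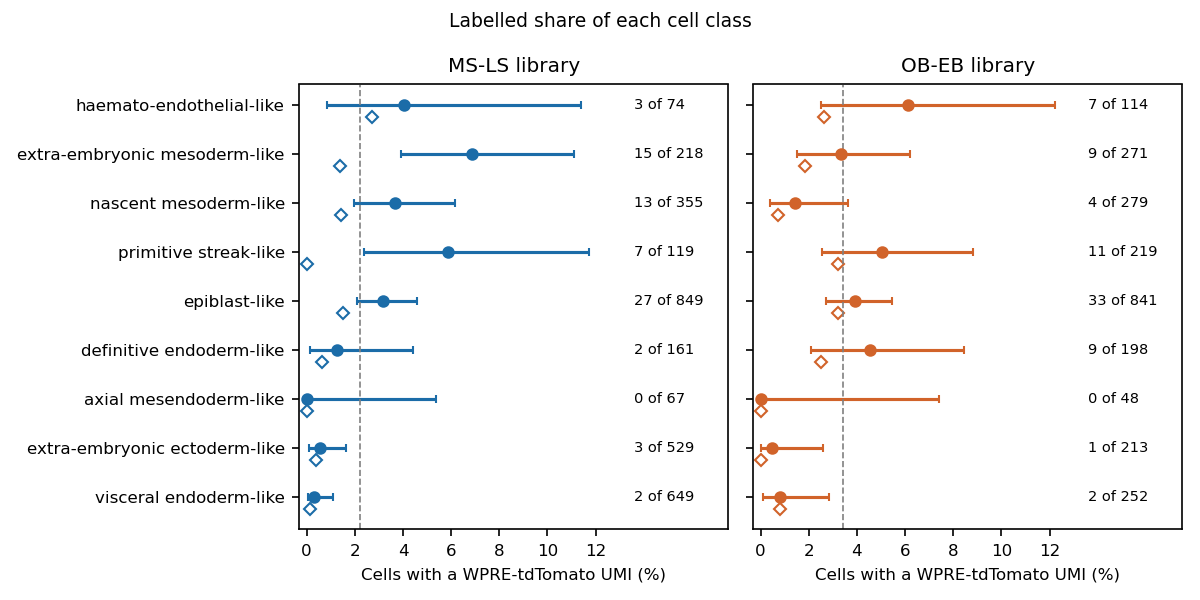
Share of cells with a WPRE-tdTomato UMI in each class, in percent, for the MS-LS and OB-EB libraries, with labelled cells of all cells written beside each row. Filled points with bars show the deposited counts and exact binomial 95% intervals, open diamonds the shares after thinning each cell to 2000 UMIs, and the dashed line the share over all cells, 2.20% and 3.44%. The extra-embryonic ectoderm-like and visceral endoderm-like points lie under 1% in both panels, and the 0 of 67 and 0 of 48 of the axial mesendoderm-like class lie at 0.

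The SV40 poly(A) row is the part of the reporter that Cre removes, so its UMIs stand for transcripts that still hold the stop sequence. Whether the *T* knock-in carries such a signal as well is not given in the sources used here. In the MS-LS library it was read at 45.0 CPM (38.7 to 52.0) in epiblast-like cells and at 44.4 CPM (38.3 to 51.1) in the streak-like and mesoderm-like cells. In the extra-embryonic ectoderm-like and visceral endoderm-like cells it was read at 32.5 CPM (28.3 to 37.2). The reporter row was read at 7.13, 9.60 and 0.767 CPM in the same order. The stop row was thus lower in the extra-embryonic classes, with an interval below those of the embryonic ones. It was still read there, whereas the reporter row was close to absent. Reporter UMIs made up 13.7% (9.36 to 19.1) of reporter and stop-row UMIs in epiblast-like cells, 17.8% (13.1 to 23.3) in streak-like and mesoderm-like cells and 2.30% (0.752 to 5.29) in the extra-embryonic pair. Extra-embryonic mesoderm-like cells had the highest such share among the MS-LS classes, 30.8% (16 of 52 UMIs, 18.7 to 45.1).

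At OB-EB the corresponding shares were 15.5% (10.9 to 21.1), 14.8% (10.4 to 20.3) and 4.05% (0.844 to 11.4). The stop row stood at 68.0, 57.8 and 36.9 CPM, and the reporter row at 12.5, 10.1 and 1.56 CPM. Over all cells the reporter made up 10.1% (8.07 to 12.4) of the UMIs of both rows at MS-LS and 14.6% (12.1 to 17.4) at OB-EB. In the early headfold library of the same genotype, collected 7 h after tamoxifen at E7+7h, it made up 78.2% (74.9 to 81.2). There 387 of 3185 cells were labelled (12.2%, 11.0 to 13.3). Over all cells the stop row stood at 41.1 CPM at MS-LS, 58.6 CPM at OB-EB and 7.58 CPM at early headfold. The reporter row stood at 4.60, 9.99 and 27.2 CPM in the same order. The bGH row, which lies just after WPRE, stood at 6.64, 22.2 and 3.56 CPM, so it did not rise with the reporter row at early headfold. UMIs were thus spread over the vector rows differently in that library, and its share may not be like for like with the others. The higher share at early headfold went with lower stop and bGH rows as well as a higher reporter row. Its source was not tested. Label and stop row were not exclusive in single cells. The stop row had a UMI in 16% of labelled and 18.9% of unlabelled MS-LS cells (log2 ratio of levels -0.48, -1.36 to 0.27) and in 22.8% and 18.4% of OB-EB cells (0.16, -0.47 to 0.73), and each cell carries a pair of reporter copies. The host transcript *Gt(ROSA)26Sor* was also alike, with log2 ratios of 0.17 and 0.099.

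**Figure D2:**
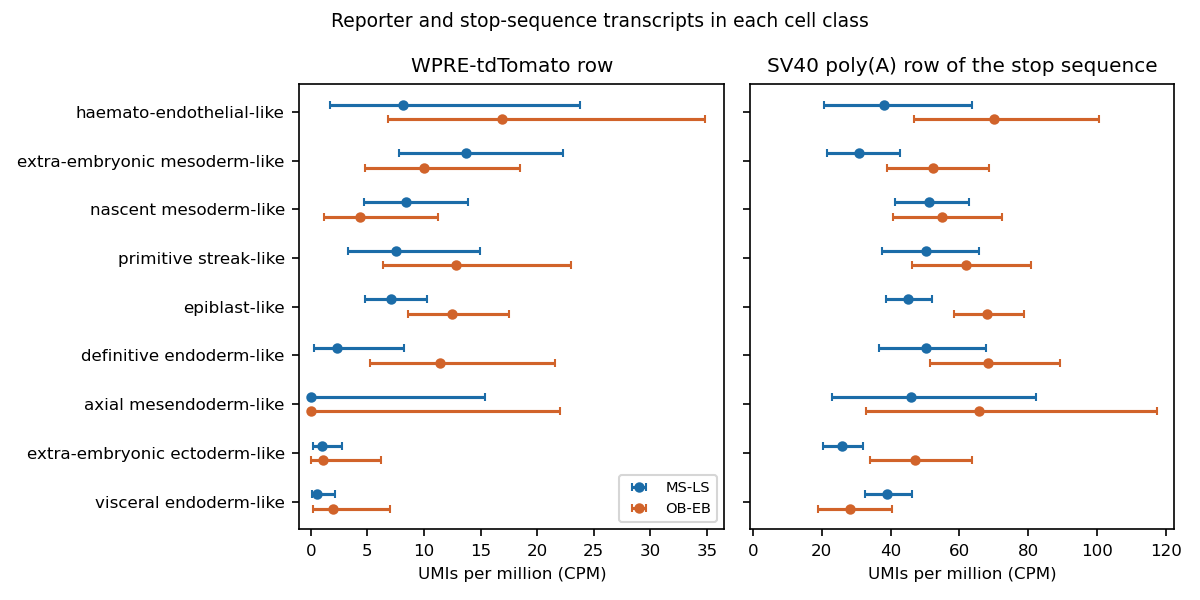
Level of the WPRE-tdTomato row and of the SV40 poly(A) row of the stop sequence, in UMIs per 1000000 UMIs, for each class of the MS-LS and OB-EB libraries, with exact Poisson 95% intervals as bars. Among the classes plotted, the extra-embryonic ectoderm-like and visceral endoderm-like ones have the lowest reporter levels above 0, while their stop-row levels remain above 20 CPM.

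Across genes, labelled cells differed from unlabelled cells mainly by what they lacked. In the MS-LS library 2838 genes had at least 20 UMIs expected in the labelled cells, and the median log2 ratio of labelled over unlabelled level was 0.018, with the middle 80% of genes between -0.50 and 0.34. Of these genes 105 stood at least 2-fold lower in labelled cells (3.7%) and 8 at least 2-fold higher (0.282%). The genes that stood lower were those of the extra-embryonic tissues: 99 of the 105 (94.3%) were at least 2-fold higher in the extra-embryonic ectoderm-like and visceral endoderm-like classes than in the rest of the library, against 8.49% of all genes compared.

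Most of the MS-LS genes with the lowest ratios belong to the absorptive epithelium of the visceral endoderm. *Rbp4*, which carries retinol in plasma, was at 25.4 CPM in labelled and 416 CPM in unlabelled cells, a log2 ratio of -4.03 (-4.99 to -3.23). *Apom* (-3.48), *Apoa1* (93.2 against 778 CPM, -3.06) and *Apob* (-3.29) encode apolipoproteins. *Cubn* (-3.31), *Amn* (-4.62) and *Dab2* (-3.36) encode the endocytic receptor cubilin, its membrane partner and an adaptor of their uptake, and *Amn* rested on 2 UMIs in labelled cells. *Apoa4* (-4.75, -10.1 to -2.26) and the kinase gene *Nrk* (-4.57, -9.87 to -2.08), one of the leading genes of a visceral endoderm-like cluster, rested on 1 UMI each. *Spink1*, a secreted protease inhibitor and the most abundant of these genes, was at 966 against 4926 CPM (-2.35), and the metallothionein *Mt1* at 235 against 1165 CPM (-2.31).

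*Rhox5*, an X-linked homeobox gene, was among the leading genes of an extra-embryonic ectoderm-like cluster. Its UMIs were not confined to that class, which held 529 MS-LS cells. *Rhox5* was at 44.5 CPM in labelled MS-LS cells and 492 CPM in unlabelled cells, a log2 ratio of -3.47 (-4.16 to -2.85), and was found in 8 of 75 labelled cells against 1348 of 3329 unlabelled cells.

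The 8 genes at least 2-fold higher in labelled MS-LS cells included mesodermal genes. *Ccnd2*, a D-type cyclin, stood at 123 CPM against 48.0 CPM (log2 ratio 1.36, 0.95 to 1.74) and had a UMI in 36.0% of labelled and 15.9% of unlabelled cells. *Mesp1*, the transcription factor of nascent cardiac and cranial mesoderm (chromosome 7, positions 79792241 to 79793788, minus strand), stood at 146 against 60.5 CPM (1.27, 0.90 to 1.63). *Fn1*, the matrix protein fibronectin on which mesoderm migrates, stood at 203 against 101 CPM (1.01, 0.70 to 1.31), and *Ifitm1*, a membrane protein gene of posterior mesoderm, at 265 against 124 CPM (1.09, 0.82 to 1.35). The other four were *Ppic*, a cyclophilin (144 against 62.6 CPM, 1.20), *Slc6a6*, a taurine transporter (1.16), *Phlda2*, an imprinted growth regulator (1505 against 745 CPM, 1.02), and *Sox11*, a SOX-family transcription factor (1.0). None of the 8 was at least 2-fold higher in the extra-embryonic ectoderm-like and visceral endoderm-like classes, and 5 stood at least 2-fold lower there. *Rps6ka6*, *Tspan6*, *Mbtd1* and *Car14* came next, at 0.77 to 0.89. After thinning to 2000 UMIs, which left 30 labelled cells, *Ccnd2* was at -0.44 (-3.49 to 1.43, 2 UMIs in labelled cells) and *Mesp1* at -0.40 (-2.68 to 1.16, 3 UMIs), the other six of the 8 lay between 0.25 and 1.39, and of all 8 *Phlda2* alone (0.52) still had 20 expected UMIs.

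The OB-EB library gave the same kind of contrast with smaller ratios. Of 2464 genes compared, 47 stood at least 2-fold lower in labelled cells (1.91%) and 0 at least 2-fold higher (0%), around a median of 0.016. Of the 47, 40 (85.1%) were at least 2-fold higher in the extra-embryonic ectoderm-like and visceral endoderm-like classes, against 6.25% of all genes compared. *Rhox5* again stood low, at 25.1 against 264 CPM (-3.40, -4.46 to -2.52). *Rbp4* was at 32.6 against 271 CPM (-3.06), *Spink1* at 1034 against 4462 CPM (-2.11), *Ttr*, which encodes the thyroid hormone carrier transthyretin, at 131 against 646 CPM (-2.31) and *Mt1* at 138 against 561 CPM (-2.02). *Id2*, an inhibitor of bHLH transcription factors, was at -2.44, *Gpx3*, a secreted glutathione peroxidase, at -2.79 and *Cited1*, a transcriptional coactivator, at -2.59. *Apoa1* (-2.27) and *Apom* (-2.15) completed the set together with *Lgals2* (-3.61) and *Apoa2* (-3.15), which rested on 2 and 3 UMIs.

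No OB-EB gene reached 2-fold in the other direction, and the highest ratios belonged to genes of several functions. *Lef1*, the nuclear partner of β-catenin in Wnt signalling, stood at 186 CPM in labelled and 102 CPM in unlabelled cells (0.86, 0.50 to 1.21), and was at 0.67 (0.079 to 1.20) in the MS-LS library. *Apela*, a peptide ligand of the apelin receptor, was at 0.78 (0.33 to 1.20) and *Fgfr1*, the FGF receptor required in the streak, at 0.79 (0.28 to 1.26). *Tspan6*, a tetraspanin, was the only gene among the 12 highest of both libraries, at 0.64 (0.30 to 0.96) and 0.79 (0.46 to 1.10). The others, *Hnrnpul2*, *Dars*, *B930036N10Rik*, *Ddx46*, *Vars*, *Psmd4*, *Spop* and *Pithd1*, lay between 0.51 and 0.77 and encode, among others, aspartyl-tRNA and valyl-tRNA synthetases and a proteasome subunit. After thinning, *Lef1* was at 0.028 (-0.89 to 0.81, 13 UMIs), *Tspan6* at 0.040, *Spop* at -0.34 and *Vars* at -0.53, while the other eight of the 12 lay between 0.27 and 1.20, and of all 12 *Psmd4* alone (0.58) still had 20 expected UMIs.

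Of the 2312 genes compared in both libraries, 37 stood at least 2-fold lower in labelled cells of each. They made up 56.9% of the 65 such genes of the MS-LS library and 80.4% of the 46 of the OB-EB library, and no gene stood past 2-fold in opposite directions. Lipid carriage was represented by *Apoa1*, *Apoa2*, *Apob*, *Apoc1*, *Apoe*, *Apom* and *Mttp*, the protein that loads lipid onto apolipoprotein B. Lysosomal proteolysis was represented by *Ctsb*, *Ctsh*, *Ctsl*, *Ctsz* and *Lgmn*, and metal binding by *Mt1* and *Mt2*. *Apoe* had log2 ratios of -2.20 and -1.89, *Ctsl* of -1.66 and -1.26, *Lgmn* of -2.65 and -1.95 and *Mt2* of -1.87 and -1.94. *Rhox5*, *Id2*, the fatty acid carrier *Fabp3* (-1.91 and -2.30) and the imprinted RNA *H19* (-1.51 and -1.91) were lower in both as well. The ratios of the libraries, which share no cells, correlated across the 2312 genes at r = 0.67, where genes are not independent replicates and the same extra-embryonic genes supply the extreme values of both.

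**Figure D3:**
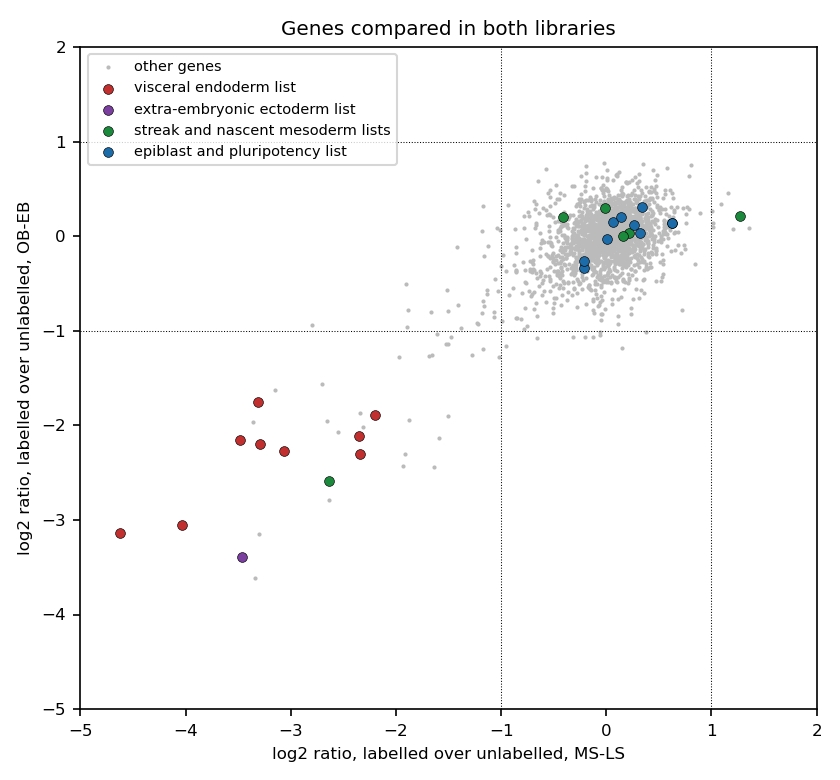
Log2 ratio of labelled over unlabelled level for the 2312 genes compared in both libraries, MS-LS on the horizontal and OB-EB on the vertical axis, with dotted lines at 2-fold. Genes of the visceral endoderm list and *Rhox5*, of the extra-embryonic ectoderm list, lie in the lower left corner with *Cited1* of the nascent mesoderm list, and the streak, nascent mesoderm and epiblast genes otherwise lie near the origin, apart from *Mesp1* at 1.27 and 0.22.

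Gene lists gave the same order. All 11 visceral endoderm genes compared in the MS-LS library stood at least 2-fold lower (median -3.29), as did all 9 in the OB-EB library (median -2.19), beside medians of 0.018 and 0.016 over all genes. *Rhox5* was the only extra-embryonic ectoderm gene abundant enough to compare. *Elf5*, a trophoblast transcription factor, fell short of that minimum and had 4 UMIs in labelled against 664 in unlabelled MS-LS cells and 0 against 141 in OB-EB cells. Among 7 epithelial genes of the MS-LS library *Cldn6* (-1.16) and *Cldn7* (-1.02), which encode claudins of tight junctions, stood past 2-fold lower, and the list median was -0.75. *Cdh1*, which encodes E-cadherin, was at -0.93 (-1.51 to -0.40). In the OB-EB library *Cdh1* was at -0.62 (-1.47 to 0.11), within a list median of -0.57 and 0 of 6 genes past 2-fold. With the cell classes balanced, the epithelial medians became -0.086 at MS-LS and -0.36 at OB-EB. At MS-LS *Cdh1* stood at 170 CPM in the extra-embryonic ectoderm-like and visceral endoderm-like cells. It stood at 109 CPM in epiblast-like and 45.7 CPM in streak-like and mesoderm-like cells.

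The streak list, which holds the Cre driver, stood slightly above 0 over all cells. It summed to 752 against 598 CPM at MS-LS (0.33, 0.17 to 0.48) and 743 against 628 CPM at OB-EB (0.24, 0.071 to 0.41). None of its 4 genes compared in the MS-LS library and none of its 6 in the OB-EB library was past 2-fold, and the medians were 0.19 and 0.12. *T* itself had 26 UMIs in the labelled MS-LS cells, 55.1 CPM against 38.5 CPM (0.52, -0.11 to 1.08), and 42 UMIs in the labelled OB-EB cells, 105 against 98.2 CPM (0.10, -0.38 to 0.55). *Eomes*, a T-box factor of the early streak, was at 0.22 (-0.14 to 0.56) and 0.029 (-0.62 to 0.62). *Tdgf1*, a Nodal co-receptor, was at 0.63 (0.33 to 0.91) and 0.14. The signs of both streak medians turned when the cell classes were balanced, to -0.075 and -0.13.

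The epiblast and pluripotency list lay slightly above 0, with 0 of 12 and 0 of 9 genes past 2-fold and medians of 0.20 and 0.11. *Pou5f1*, the pluripotency factor OCT4, stood at 584 against 463 CPM at MS-LS (0.33, 0.16 to 0.51) and 447 against 360 CPM at OB-EB (0.31, 0.086 to 0.53). *Sox2* was at -0.21 and -0.26, with intervals that include 0. Mesodermal lists held few genes above the minimum. In the nascent mesoderm list *Mesp1* stood past 2-fold higher and *Cited1* past 2-fold lower in MS-LS cells, and *Cited1* alone past 2-fold lower in OB-EB cells. *Cited1* was also abundant in visceral endoderm-like cells, and its MS-LS ratio of -2.64 became -0.0019 when the classes were balanced.

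Genes under the minimum are given by their counts. *Hand1*, a bHLH factor of extra-embryonic and lateral mesoderm, had 32 UMIs in labelled MS-LS cells (67.8 against 24.7 CPM, 1.46, 0.89 to 1.98) and 17 in OB-EB cells (42.7 against 47.3 CPM, -0.15, -0.94 to 0.55). *Foxf1*, of the same tissues, had 20 UMIs at MS-LS (42.3 against 8.99 CPM, 2.24, 1.49 to 2.91) and 10 at OB-EB (-0.12, -1.19 to 0.79). *Kdr*, the VEGF receptor of blood and vessel progenitors, stood higher in both libraries, at 0.87 (0.13 to 1.54) and 1.0 (0.36 to 1.57). With the cell classes balanced, the MS-LS values of these genes became 0.30, 0.42 and -0.36, and the OB-EB value of *Kdr* 0.68. The haemato-endothelial list, none of whose 15 genes reached the minimum, summed to 174 against 108 CPM at MS-LS (0.68, 0.34 to 1.0) and 168 against 137 CPM at OB-EB (0.30, -0.077 to 0.65). The Hox and primitive erythroid lists summed to under 30 CPM in every group.

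Lists of cell state held few genes past 2-fold. Of the 12 S phase genes compared in each library none was past 2-fold, with medians of 0.18 and 0.19. At MS-LS 11 of the 12 lay above 0, and at OB-EB 10. The S phase list summed to log2 ratios of 0.21 (0.12 to 0.30) and 0.19 (0.093 to 0.29). With the classes balanced the S phase medians became 0.088 and 0.091. Of 11 and 9 G2 and M phase genes none was past 2-fold, with medians of 0.099 and 0.13. Of 11 glycolysis genes only *Slc2a3*, a glucose transporter, was past 2-fold lower at MS-LS (-1.66, -2.01 to -1.33; 0.11 with the classes balanced), and none was at OB-EB. Of the 12 p53 target genes only 2 could be compared in each library, and 0 were past 2-fold. Of the 13 immediate early and heat shock genes 7 and 4 could be compared, and 0 were past 2-fold in either library. Definitive endoderm genes had medians of -0.63 and -0.21 over 2 genes each, anterior streak genes 0.29 and -0.32 over 3 and 2, mesenchymal genes 0.29 and 0.025 over 2 and 4, and extra-embryonic mesoderm and lateral plate genes -0.44 and -0.74 over 3 and 2. The cardiac list had only *Myl7* to compare (0.72 and -0.78) and the paraxial mesoderm list only *Fn1*.

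**Figure D4:**
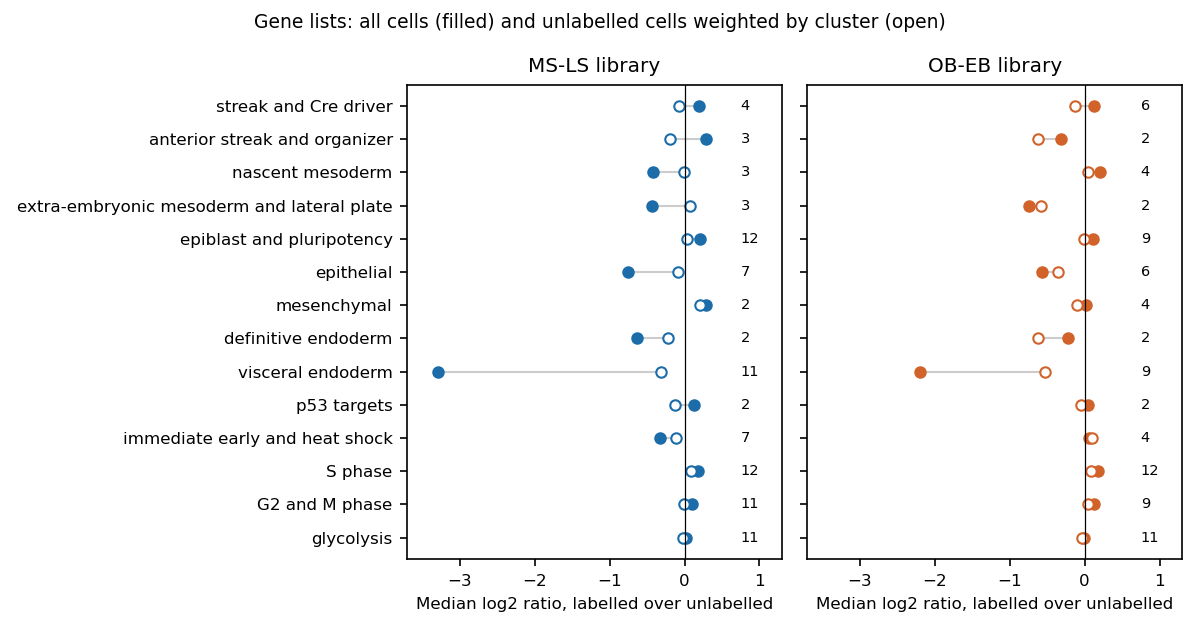
Median log2 ratio of labelled over unlabelled level for the gene lists with at least 2 genes compared in each of the MS-LS and OB-EB libraries, with the number of genes compared at the right of each row. Filled points use all cells and open points weight the unlabelled cells so that each cluster holds the share of UMIs it holds among labelled cells: the visceral endoderm medians of -3.29 and -2.19 become -0.31 and -0.53, and all other medians shown lie within 1 of 0.

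Setting the cell classes equal removed most of the contrast. When the extra-embryonic ectoderm-like and visceral endoderm-like cells were left out, 8 of 2561 genes stood at least 2-fold lower in labelled MS-LS cells (0.312%) and 2 higher (0.0781%), and 9 of 2365 lower in OB-EB cells (0.381%) and 0 higher (0%). The 2 higher genes were *Phlda2* (1.0, 0.89 to 1.11) and *Ppic* (1.16, 0.77 to 1.53), and *Mesp1* was at 0.76. *Cer1*, a secreted antagonist of Nodal, BMP and Wnt made by anterior endoderm, was among the lower genes of both libraries, at -3.33 (-5.61 to -1.78, 3 UMIs in labelled cells) and -1.11 (-2.07 to -0.29). The other lower genes included *Strbp*, *Sp3*, *Gmcl1*, *Ppp1r1a*, *1110004E09Rik*, *Phax* and *Mgea5* at MS-LS and *Wdr76*, *Nxt1*, *Mrpl4*, *Myl7*, *Id2*, *Ttr* and *Spink1* at OB-EB. *Myl7*, a myosin light chain of the forming heart, was at 111 against 227 CPM (-1.04, -1.51 to -0.60) in these OB-EB cells.

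With unlabelled cells weighted to match the labelled cells cluster by cluster, 18 MS-LS genes stood at least 2-fold lower (0.634%) and 2 higher (0.0705%), and 14 OB-EB genes lower (0.568%) and 0 higher (0%). The mesodermal genes moved toward 0: *Mesp1* to 0.39, *Ccnd2* to 0.31, *Fn1* to 0.29, *Ifitm1* to 0.30 and *Phlda2* to 0.097. *Lef1* was at 0.76 at OB-EB under this weighting, against 0.028 after thinning. *Rhox5* still stood low, at -1.67 and -1.40, as did *Amn*, at -1.73 and -1.30, and *Spink1* was at -0.031 at MS-LS and -1.14 at OB-EB. The *Amn* values rest on 2 and 3 UMIs. *Cer1* was at -0.24 at MS-LS and -1.39 at OB-EB. The 2 higher MS-LS genes were *Fbxo21* (1.20) and *Clic6* (1.25), which had 29 and 10 UMIs in labelled cells and ratios of 0.33 and -1.94 over all cells.

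Inside classes, the label went with few differences in the genes of the streak and its derivatives. Only the epiblast-like class and the streak-like and mesoderm-like classes together held at least 20 labelled cells in each library. In the 38 labelled MS-LS streak-like and mesoderm-like cells *T* was at 81.6 against 89.2 CPM (-0.13, -0.82 to 0.49), *Mesp1* at 237 against 213 CPM (0.16, -0.23 to 0.53) and *Eomes* at 237 against 218 CPM (0.12, -0.27 to 0.49). *Hand1* was the exception, at 115 against 57.5 CPM (1.0, 0.41 to 1.54), with a UMI in 16 of 38 labelled and 135 of 728 unlabelled cells. Extra-embryonic mesoderm-like cells, which *Hand1* leads, supplied 15 of these 38 labelled cells.

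In the 31 labelled OB-EB cells of these classes *T* was at 181 against 185 CPM (-0.035, -0.70 to 0.56) and *Mesp1* at 141 against 222 CPM (-0.65, -1.41 to 0.022). *Hand1* was at -0.53 (-1.61 to 0.36) and *Kdr* at 0.44 (-0.42 to 1.19), all with intervals that include 0. In labelled epiblast-like cells *Pou5f1* lay near its level in unlabelled ones, at 1014 against 975 CPM at MS-LS (0.058, -0.19 to 0.30) and 687 against 743 CPM at OB-EB (-0.11, -0.48 to 0.23). They held 1 *T* UMI in 27 cells at MS-LS and 1 in 33 cells at OB-EB, against 24 UMIs in 822 and 48 in 808 unlabelled cells, counts too low to show a difference. *Mixl1*, a homeobox gene of the streak, had 3 UMIs in labelled and 11 in unlabelled OB-EB epiblast-like cells (2.77, 0.29 to 4.69).

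**Figure D5:**
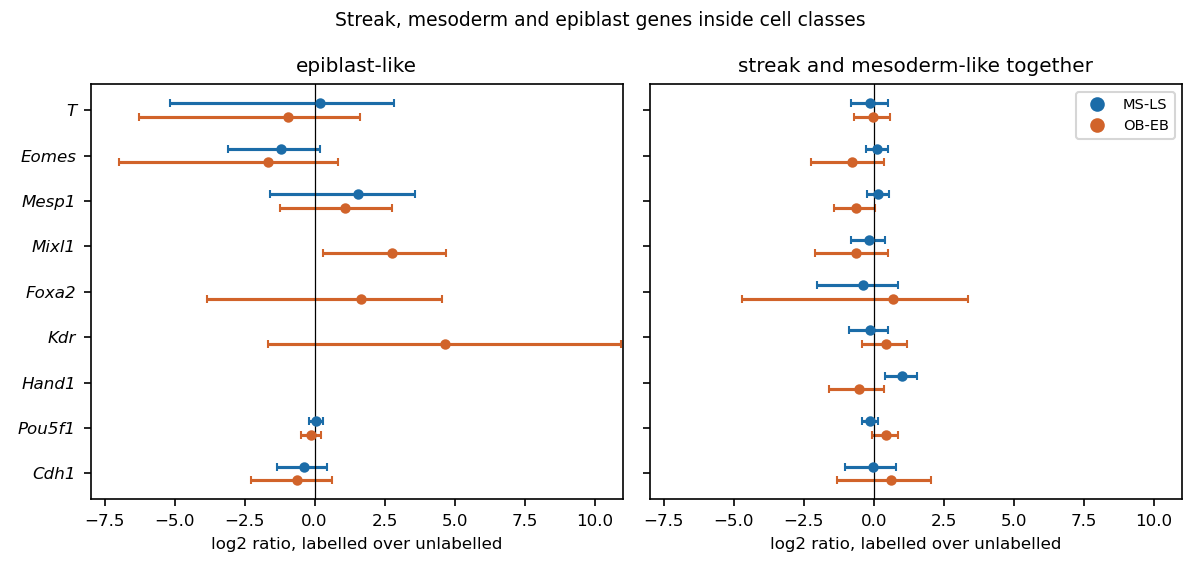
Log2 ratio of labelled over unlabelled level for 9 genes inside the epiblast-like class and inside the streak-like and mesoderm-like classes together, for the MS-LS and OB-EB libraries, with exact 95% intervals as bars and no point where labelled cells had 0 UMIs. In the streak-like and mesoderm-like panel only *Hand1* at MS-LS (1.0) has an interval clear of 0, and in the epiblast-like panel only *Mixl1* at OB-EB (2.77, from 3 UMIs).

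With the cell identities assigned in the study, lateral plate and extra-embryonic mesoderm and nascent mesoderm had the highest MS-LS shares as deposited. The primitive streak lay near the epiblast. Among MS-LS cells of at least 2000 UMIs, 12 of 202 cells of lateral plate and extra-embryonic mesoderm identity were labelled (5.94%, 3.11 to 10.1), 17 of 357 nascent mesoderm cells (4.76%, 2.80 to 7.51), 27 of 979 epiblast cells (2.76%, 1.83 to 3.99), 8 of 318 primitive streak cells (2.52%, 1.09 to 4.90) and 0 of 34 anterior primitive streak cells. Among OB-EB cells, 10 of 217 primitive streak cells (4.61%, 2.23 to 8.31), 6 of 147 definitive endoderm cells (4.08%, 1.51 to 8.67) and 6 of 111 endothelial and blood cells (5.41%, 2.01 to 11.4) were labelled. The MS-LS primitive streak identity held more cells than the primitive streak-like class (318 against 119). Their shares, 2.52% and 5.88%, are thus over different populations. Endothelial and blood cells at MS-LS were labelled at 2.82% (2 of 71, 0.343 to 9.81). The MS-LS order changed after thinning to 2000 UMIs. Lateral plate and extra-embryonic mesoderm then stood at 0.990% (0.120 to 3.53), nascent mesoderm at 1.96% (0.792 to 4.0) and epiblast at 1.23% (0.635 to 2.13). Endothelial and blood cells stood at 1.41% and the primitive streak at 0.629%.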

How the data were processed

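Droplet 3′ libraries of dissociated embryos were aligned by the authors with Cell Ranger 3.0.2 to GRCm38 with the sequence of the reporter plasmid added. The deposited tables hold UMI counts per gene and cell, not normalised, for cells with at least 500 genes and 1000 UMIs. Per the submitters' notes, R 3.6.1 and Seurat 3 were also used. The MS-LS library held 3635 cells and 17966956 UMIs, and the OB-EB library 3994 cells and 12181436 UMIs. The pair of early headfold tables held identical counts and was used as 1 library. Cells were used from 2000 UMIs.

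Inside each library, UMIs were summed over labelled and over unlabelled cells, the 7 vector rows left out, and divided by the total (CPM, per 1000000). Genes with at least 20 UMIs expected in labelled cells were compared, 2-fold was the threshold, and ratios have exact conditional 95% intervals. Shares have exact Clopper-Pearson intervals. With 1 library per stage no test was made. The sums were tested on simulated data.

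Clusters were made with scanpy 1.11.5 (2000 variable genes, 30 principal components, 15 neighbours, resolution 2, vector rows left out) and named from markers of 16 cell types where at least 3 were detected. The combined classes were chosen after values were seen. Python 3.11.15, numpy 2.4.6 and scipy 1.17.1 were used.

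Genes named are the 12 highest and 12 lowest per library by the interval bound nearest 0 (the highest with a UMI in at least 5 labelled cells, and without mitochondrial, ribosomal, *Xist*, Y-linked and vector rows), members of 20 gene lists, and 9 genes inside classes with at least 20 labelled cells. Genes shared by both libraries and those left after balancing classes were named after their values were seen. The rule for cells, the lists and the genes were chosen with earlier results of these data known. A count of 0 allows 3 cells of the total. The alternatives tried are given under the closing observations. 1 gene is counted among those compared and is not reported here.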

Additional observations from a re-analysis of the deposited data

Results flagged for a closer look

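Among the 2312 genes compared in both libraries, a few stood on opposite sides of 0 with both intervals clear of it. The myosin light chain gene *Myl7* had log2 ratios of labelled over unlabelled level of 0.72 at MS-LS and -0.78 at OB-EB, and the X-inactivation RNA *Xist* of 0.41 and -0.33. The mitochondrial ribosomal protein gene *Mrpl32* was at -0.65 and 0.58, and *Ssr4*, of the endoplasmic reticulum translocon, at -0.47 and 0.39. These genes were picked from all 2312 by that rule, and how many counting error alone would give was not worked out. The difference between the libraries was not tested, since each stage has 1 library and the intervals cover counting error only. With the classes balanced, *Myl7* was at -0.28 at MS-LS and -0.69 at OB-EB.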

How the results depend on the processing

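No paired analysis was possible because each stage has 1 library and no replicate number links cells. The labelled share of 2.20% (MS-LS) and 3.44% (OB-EB) was 0.176% and 0.136% from 2 reporter UMIs, 0.881% and 2.08% after thinning to 2000 UMIs, and 4.61% and 8.78% when a bGH row UMI also counted. In the same settings the MS-LS counts of 8 higher and 105 lower genes became 3 and 14, 0 and 18, and 8 and 166. With 5 expected UMIs they were 62 and 527, with the extra-embryonic ectoderm-like and visceral endoderm-like classes left out 2 and 8, and centred on the median ratio 5 higher. The OB-EB counts of 0 higher and 47 lower became 1 and 1 from 2 reporter UMIs, 14 lower after thinning, 4 and 77 with the bGH row, 33 and 353 with 5 expected UMIs and 9 lower without those classes. Weighting by cluster, an alternative chosen after seeing the data, gave 2 higher and 18 lower at MS-LS and 14 lower at OB-EB. These counts are over different totals, set against 2838 and 2464 genes in the main setting. Fewer genes could be compared from 2 reporter UMIs (353 and 154) and after thinning (480 and 876). More could be compared with the bGH row (4687 and 4820) and with 5 expected UMIs (6593 and 6059). Thinned class shares were 1.53% for MS-LS epiblast-like cells and 1.31% and 1.93% for streak-like and mesoderm-like cells. Of the named genes, *Apoa1* at MS-LS turned to 0.067 without those classes and 0.0016 weighted by cluster, and *Cubn* to 0.20 weighted by cluster. Of the alternative values of named genes that kept 20 expected UMIs, 190 at MS-LS and 191 at OB-EB stayed inside the interval of the reported value, 50 and 40 left it with a kept or uncalled sign, and 3 and 0 turned. The primitive streak-like MS-LS share was 1.84% at resolution 1 and the nascent mesoderm-like OB-EB share 4.15% at resolution 4. With the classes balanced or left out, the medians of the visceral endoderm, extra-embryonic ectoderm, epithelial, definitive endoderm, S phase and immediate early lists kept their sign in both libraries, and those of each other list compared turned in at least 1.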

Other observations

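Labelled cells were found in cells of both sexes. Taking cells with *Xist* UMIs and no UMI of 4 Y-linked genes as female, and the converse as male, 22 of 861 female cells (2.56%, 1.61 to 3.84) and 21 of 797 male cells (2.63%, 1.64 to 4.0) were labelled in the MS-LS library. In the OB-EB library 31 of 899 female cells (3.45%, 2.35 to 4.86) and 27 of 570 male cells (4.74%, 3.14 to 6.82) were labelled, and the intervals overlap in each library.

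Clusters that could not be named carried label at different levels. In the MS-LS library a cluster led by *Fst*, *Nanog* and *Nefl*, with *T* at 62.3 CPM and *Pou5f1* at 977 CPM, had 1 labelled cell of 277 (0.361%, 0.00914 to 1.99), an interval below that of the epiblast-like class. After thinning to 2000 UMIs the share was 0.361% again and its interval overlapped that of the epiblast-like class, 0.818 to 2.60. Its level of the stop row was 54.5 CPM (41.9 to 69.8). In the OB-EB library clusters led by *Fst*, *Sp8* and *Dnmt3b* and by *Gm37720*, *Fhl3* and *Myl7* had 8 of 155 (5.16%, 2.25 to 9.92) and 8 of 226 (3.54%, 1.54 to 6.86). In the cluster led by *Ifitm3*, *Hotairm1* and *Hoxb3os*, 7 of the 14 UMIs of the reporter and stop rows were reporter UMIs (50.0%, 23.0 to 77.0).

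The 10 cells with 2 reporter UMIs were spread over classes. At MS-LS, 2 were epiblast-like, 2 nascent mesoderm-like, 1 extra-embryonic mesoderm-like and 1 primitive streak-like, and 2 of the 6 held *T* UMIs. At OB-EB 1 was extra-embryonic mesoderm-like and 3 lay in unnamed clusters, and 2 of the 4 held *T* UMIs.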
